A study of Mus musculus with 8 samples.

Results

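The genes described here are 42 genes of the actin cytoskeleton and of the transcription programmes that respond to it, those driven by SRF with its actin-sensing MRTF cofactors and by YAP with its TEAD partners. They were taken by symbol, through the array probes whose RefSeq transcript belongs to one of the 42 genes. All 42 had at least 1 probe (63 probes in all), and 41 passed the filter on dim probes and were tested, among 22687 genes and unnamed features. RNA from mouse embryonic stem cells was measured on 8 Agilent arrays of 1 colour, with 2 arrays in each of 4 groups. The cells of every group, untreated cells included, grew in medium with LIF, a cytokine that keeps them undifferentiated, and with PD173074 at 250 nM, which blocks FGF receptors. The inhibited cells had 8 h of 4OHT at 250 nM, followed by 2 h with the MEK kinase blocker PD0325901 at 1 µM. The remaining groups were untreated cells, cells after 8 h of 4OHT (4OHT 8h) and cells after 10 h of 4OHT (4OHT 10h). 4OHT, 4-hydroxytamoxifen, activates proteins fused to a modified oestrogen receptor. No such protein and no cell line is named in the labels, nor whether PD0325901 was added on top of 4OHT or in its place. MEK activates the kinase Erk of the series title, and the comparisons ask which transcripts followed 4OHT and which depended on MEK activity after it.

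Actin monomers hold MRTF in the cytoplasm, and when monomers are built into filaments MRTF enters the nucleus and joins SRF at CArG boxes, found in promoters of actins, calponins, transgelin and many adhesion genes. The LATS kinases of the Hippo pathway phosphorylate YAP and its relative TAZ and keep them out of the nucleus. Filament tension releases this hold, after which YAP and TAZ activate genes such as Ccn1, Ccn2 and Ankrd1 through TEAD proteins. Embryonic stem cells form compact colonies with few stress fibres, and they reorganise actin and the nuclear lamina as they leave pluripotency.

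Values below are log2 processed signals minus the 75th percentile of their array, given for replicate 1 and replicate 2 in that order, and each change is a difference of 2 group means on that scale ± its standard error (SE) in a limma fit to all 8 arrays. A gene is called where its Benjamini-Hochberg adjusted p over all tested features was under 0.05. The number of arrays, 2 per group, limits the precision, and levels are never set against each other between probes. All 10 embryonic stem cell markers, Pou5f1 and Sox2 among them, were well above background on both arrays of each group. Between 36889 and 37789 spots were well above background on the arrays of replicate 1 and between 30218 and 31433 on those of replicate 2. The response genes of ERK signalling moved as a check of the treatments: Dusp6, a phosphatase induced by ERK, differed by 2.95 ± 0.09 between 4OHT 10h and untreated cells and by -5.85 ± 0.09 between inhibited cells and 4OHT 10h. The p-values measure the spread between the arrays of a group, which may be technical, since the cultures behind the replicates are not described. The arrays hold bulk RNA, in which fewer cells of a kind and less RNA per cell cannot be told apart.

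After 4OHT genes of the module moved in both directions. At 10h the adhesion proteins Fhl2, Zyx and Actn4, the lamina and intermediate filament genes Lmna and Vim and the angiomotin Amotl1 were among the genes that rose. Myl9, Tagln, Cnn2, Tpm1 and another angiomotin, Amotl2, were among those that fell. Neither side holds whole families: Tagln2 and Tpm3 rose, and the crosslinker and adhesion genes Actn1, Flna and Vcl were not called. At 4OHT 8h 14 of the 41 tested genes were called against untreated cells, 10 higher and 4 lower, a share of 34.1% where 21.7% of all 22686 features tested were called (10.3% higher and 11.5% lower). At 4OHT 10h 20 of 41 were called, 13 higher and 7 lower, or 48.8% where 27.9% of all features were called (13.1% higher and 14.8% lower). The lower calls, 4 of 41 at 8h and 7 of 41 at 10h, were near the share of lower calls over all features. The groups by role described below hold 2 to 6 tested genes each, too few for their counts to be read against these shares. The median change of the 41 genes was -0.01 at 8h and 0.08 at 10h, against -0.04 and -0.05 over all features. At 10h 7 of the 41 genes were called and changed at least 2-fold, as were 2115 of all 22686 features. Each of the 14 and of the 20 called genes moved the same way in replicate 1 and in replicate 2. The calls rest on these same arrays, so this agreement is not separate evidence. Between 4OHT 10h and 4OHT 8h limma called 0 of the 41 genes and 0% of 22686 features, while 3 of the genes (Fhl2, Tagln and Cnn2) and 1499 features had an unadjusted p under 0.05. The 8h and 10h comparisons share the untreated arrays.

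**Figure D1:**
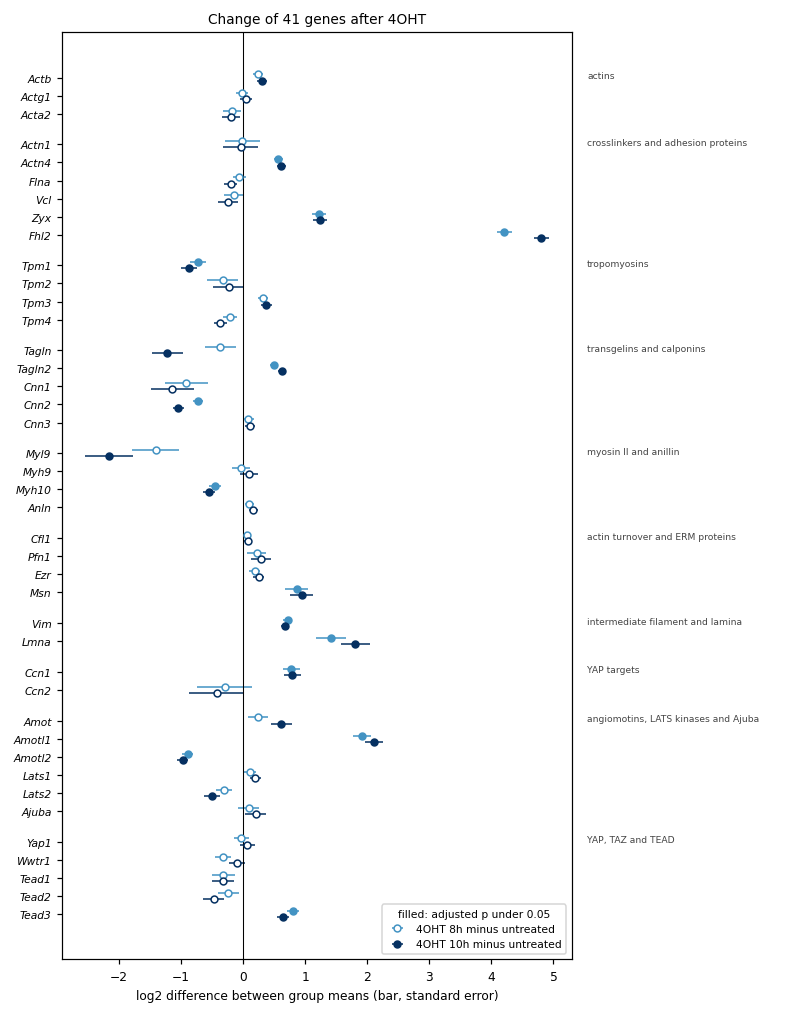
Log2 difference of 4OHT 8h (light blue) and 4OHT 10h (dark blue) from untreated cells for the 41 tested genes, grouped by role, with the SE of the fit as a bar and a filled point where the adjusted p was under 0.05. Fhl2 stands farthest to the right, at 4.21 and 4.80, and Myl9 farthest to the left, at -1.41 and -2.16.

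Promoters were searched for the motifs of SRF and TEAD, the factors of these programmes, and of AP-1 and ETS factors, in RefSeq windows of assembly GRCm38.p6 that run from 250 bases before to 50 after an annotated start. A window was in the table for 38 of the 42 genes, and not for Actb, Tagln, Ccn2 and Tead1. The CArG box of SRF was searched as CCWWWWWWGG, with W for A or T, and boxes with a mismatch were not counted. On both strands, the CArG box was present in 1.63% of all 32851 windows, the TEAD motif GGAATG in 14.7%, the AP-1 motif TGANTCA in 7.81% and the ETS motif CCGGAAG in 8.86%. The 38 genes have 45 windows, of which 6, 18, 4 and 3 held these motifs in that order. A CArG box was found for 5 of the 38 genes, which are all printed first, called or not, each window in lower case on its gene's strand with the motif in capitals. The windows are Fhl2 downstream at chr1:43163912-43164211 (minus strand, box at -31 from the start), Fhl2 upstream at chr1:43196712-43197011 (minus strand, -96), Cnn2 at chr10:79988350-79988649 (plus strand, -56), Myl9 at chr2:156775214-156775513 (plus strand, -161), Actg1 at chr11:120348446-120348745 (minus strand, -90) and Vcl at chr14:20929148-20929447 (plus strand, -227, with GGAATG at -143 also in capitals).
Fhl2 downstream: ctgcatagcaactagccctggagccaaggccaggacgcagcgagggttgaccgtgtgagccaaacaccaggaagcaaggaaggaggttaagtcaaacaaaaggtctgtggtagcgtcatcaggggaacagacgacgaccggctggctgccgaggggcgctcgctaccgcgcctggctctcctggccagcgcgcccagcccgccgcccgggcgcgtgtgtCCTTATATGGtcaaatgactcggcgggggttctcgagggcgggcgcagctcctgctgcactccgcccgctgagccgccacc
Fhl2 upstream: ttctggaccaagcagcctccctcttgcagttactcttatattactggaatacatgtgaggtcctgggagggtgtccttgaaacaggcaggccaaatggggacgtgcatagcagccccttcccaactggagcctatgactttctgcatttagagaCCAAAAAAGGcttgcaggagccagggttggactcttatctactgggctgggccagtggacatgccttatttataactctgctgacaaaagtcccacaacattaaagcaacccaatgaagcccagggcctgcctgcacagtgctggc
Cnn2: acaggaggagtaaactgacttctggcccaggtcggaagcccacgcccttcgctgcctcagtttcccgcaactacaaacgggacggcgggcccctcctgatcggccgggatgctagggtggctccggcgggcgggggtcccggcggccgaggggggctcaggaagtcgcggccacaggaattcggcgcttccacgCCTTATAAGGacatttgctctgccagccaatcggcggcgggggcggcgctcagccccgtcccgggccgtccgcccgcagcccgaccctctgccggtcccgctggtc
Myl9: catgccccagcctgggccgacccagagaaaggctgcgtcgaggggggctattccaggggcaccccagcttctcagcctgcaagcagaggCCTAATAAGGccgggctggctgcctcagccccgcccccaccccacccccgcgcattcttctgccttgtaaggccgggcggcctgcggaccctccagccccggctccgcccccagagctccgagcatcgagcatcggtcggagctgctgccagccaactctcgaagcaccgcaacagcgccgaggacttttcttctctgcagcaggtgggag
Actg1: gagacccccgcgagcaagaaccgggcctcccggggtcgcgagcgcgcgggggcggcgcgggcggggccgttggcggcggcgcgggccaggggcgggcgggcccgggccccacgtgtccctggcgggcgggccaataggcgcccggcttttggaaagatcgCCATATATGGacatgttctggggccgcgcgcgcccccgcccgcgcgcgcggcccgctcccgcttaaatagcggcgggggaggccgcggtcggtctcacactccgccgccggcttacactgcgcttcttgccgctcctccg
Vcl: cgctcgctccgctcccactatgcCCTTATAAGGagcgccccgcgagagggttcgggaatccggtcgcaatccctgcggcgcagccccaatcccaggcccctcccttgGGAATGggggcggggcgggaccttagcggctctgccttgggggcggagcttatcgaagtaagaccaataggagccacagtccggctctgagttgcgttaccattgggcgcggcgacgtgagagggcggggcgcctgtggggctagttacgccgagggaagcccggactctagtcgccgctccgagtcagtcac
Of these 5 genes Fhl2 rose after 4OHT, Cnn2 and Myl9 fell, and Actg1 and Vcl were not called. GGAATG was found for 16 of the 38 genes, among them Ccn1 at chr3:145649936-145650235 (minus strand, -103) and Amotl2 at chr9:102717554-102717853 (plus strand, -65), and in both it reads CATTCC on the printed strand. TGANTCA was found for 4 genes, Actn4, Ezr, Lmna and Zyx, the last at chr6:42349578-42349877 (plus strand, -121). CCGGAAG was found for Cfl1, Ezr and Lmna, whose windows are not printed. The windows of Ccn1 and Amotl2 are shown as the 2 genes called after both treatments that hold a TEAD motif, and that of Zyx as an example of the AP-1 motif in a gene that rose after 4OHT.
Ccn1: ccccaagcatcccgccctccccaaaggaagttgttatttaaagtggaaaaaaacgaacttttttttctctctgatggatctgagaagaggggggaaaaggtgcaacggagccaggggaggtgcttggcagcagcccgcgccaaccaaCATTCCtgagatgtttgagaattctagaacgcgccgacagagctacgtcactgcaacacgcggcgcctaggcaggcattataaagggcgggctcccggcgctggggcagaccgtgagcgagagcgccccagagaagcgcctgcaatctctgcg
Amotl2: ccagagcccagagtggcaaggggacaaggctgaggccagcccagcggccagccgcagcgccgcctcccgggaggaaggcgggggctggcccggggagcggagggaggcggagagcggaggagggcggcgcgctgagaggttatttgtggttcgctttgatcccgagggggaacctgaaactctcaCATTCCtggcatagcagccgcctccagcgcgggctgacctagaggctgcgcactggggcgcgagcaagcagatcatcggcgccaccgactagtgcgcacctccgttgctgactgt
Zyx: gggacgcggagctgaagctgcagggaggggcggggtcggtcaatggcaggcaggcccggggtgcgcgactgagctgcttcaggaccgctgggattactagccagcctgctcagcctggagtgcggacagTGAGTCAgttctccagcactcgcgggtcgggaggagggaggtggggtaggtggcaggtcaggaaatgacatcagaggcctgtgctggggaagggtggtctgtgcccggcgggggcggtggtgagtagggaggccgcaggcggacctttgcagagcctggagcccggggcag
Ccn1 and Amotl2, which share the TEAD motif, moved in opposite directions in both treatments, as described below with their values. A match describes the letters of a window and does not show that a factor was bound there.

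Among the crosslinkers and adhesion proteins 3 of 6 genes rose at both times and none fell. Fhl2 encodes a LIM-domain protein that shuttles between adhesion sites and the nucleus. It stood at 2.34 and 2.47 in inhibited cells, -1.63 and -1.69 in untreated cells, 2.48 and 2.61 at 4OHT 8h and 3.0 and 3.29 at 4OHT 10h. All 6 arrays of cells that had received 4OHT thus lay far above both untreated arrays. The difference from untreated cells was 4.21 ± 0.12 at 8h (adjusted p = 0.00015) and 4.80 ± 0.12 at 10h (adjusted p = 9.3e-05), which is 18.4-fold and 27.9-fold higher. Zyx encodes zyxin, a LIM protein of focal adhesions and stress fibres that is recruited to actin under tension. Its values were 2.55 and 2.68 in inhibited cells, 1.89 and 1.83 in untreated cells, 3.03 and 3.14 at 8h and 2.96 and 3.22 at 10h. The 2 times overlapped each other and both lay above the untreated arrays, by 1.23 ± 0.11 at 8h (adjusted p = 0.0018) and again 1.23 ± 0.11 at 10h (adjusted p = 0.0014). Actn4, an alpha-actinin that crosslinks filaments, had 6.10 and 6.06 in inhibited cells, 5.50 and 5.64 in untreated cells, 6.14 and 6.13 at 8h and 6.19 and 6.19 at 10h. It rose by 0.56 ± 0.07 at 8h (adjusted p = 0.0057) and 0.62 ± 0.07 at 10h (adjusted p = 0.0034). These calls held with any 1 array left out. Its paralogue Actn1, the crosslinker filamin A (Flna) and vinculin (Vcl), which ties adhesions to filaments, were not called. Their 10h differences were -0.04 for Actn1 (95% interval -0.74 to 0.66), -0.20 for Flna (-0.46 to 0.06) and -0.24 for Vcl (-0.65 to 0.16).

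**Figure D2:**
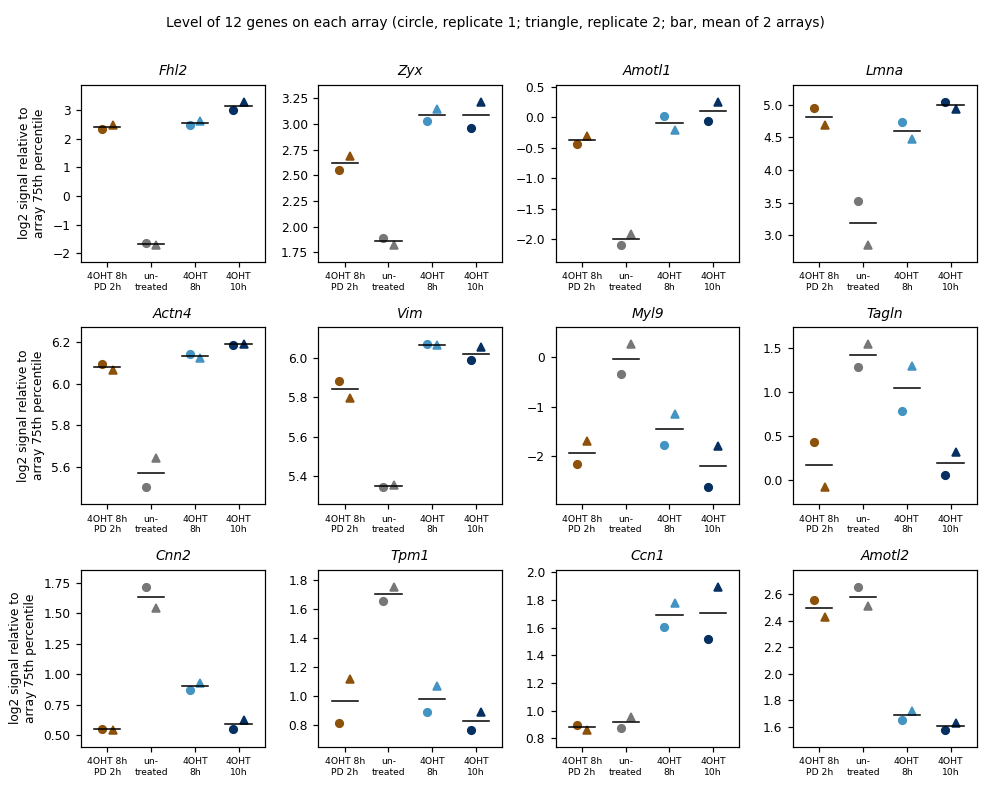
Log2 signal of 12 genes on each array, relative to the array's 75th percentile, with inhibited cells at the left and then untreated cells, 4OHT 8h and 4OHT 10h, circles for replicate 1, triangles for replicate 2 and a bar at the mean of 2 arrays, each panel on its own scale. Fhl2 shows the widest range, with untreated arrays at -1.63 and -1.69 and the other arrays between 2.34 and 3.29, and in the Ccn1 and Amotl2 panels the inhibited arrays lie beside the untreated ones and apart from all 4 other arrays.

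Of the 3 actins 1 was called. Actb, a cytoplasmic actin, stood at 9.35 and 9.31 in inhibited cells, 9.13 and 9.27 in untreated cells, 9.44 and 9.44 at 8h and 9.48 and 9.52 at 10h. Both 10h arrays were above both untreated arrays, and the difference of 0.30 ± 0.08 was called at 10h (adjusted p = 0.034) and not at 8h (0.24 ± 0.08, adjusted p = 0.079). The 10h call of Actb was lost on leaving out any 1 of the 8 arrays other than replicate 2 of untreated cells (adjusted p between 0.054 and 0.149), and with quantile normalization (0.0658). Actg1, the other cytoplasmic actin, differed by 0.05 at 10h (95% interval -0.20 to 0.29), and 0 of its 5 probes were called. Acta2, the smooth muscle actin, was dim, with means of -2.93 in untreated cells and -3.12 at 10h, though above background on every array. It differed by -0.19 (-0.55 to 0.17).

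The 4 tropomyosins, coiled proteins that wind along filaments and set which motors and severing proteins reach them, went different ways. Tpm1 had 0.81 and 1.11 in inhibited cells, 1.66 and 1.75 in untreated cells, 0.89 and 1.07 at 8h and 0.77 and 0.89 at 10h. No array of a 4OHT group reached the untreated arrays, and Tpm1 fell by 0.73 at 8h (SE 0.13, adjusted p = 0.014) and by 0.88 at 10h (SE 0.13, adjusted p = 0.0062). The 8h call was lost without either untreated array or without replicate 1 of 4OHT 8h (adjusted p 0.053 to 0.0723). The Tpm1 locus makes many isoforms, and 5 of its probes were kept. At 10h 4 of them were called lower, with differences down to -0.88, and 1 probe, on another transcript of the gene, differed by -0.02 (adjusted p = 0.884). Tpm3 stood at 8.22 and 8.25 in inhibited cells, 8.06 and 8.22 in untreated cells, 8.52 and 8.40 at 8h and 8.53 and 8.49 at 10h. Its rise of 0.37 ± 0.09 at 10h (adjusted p = 0.028) was lost without replicate 1 of untreated cells or either 10h array (adjusted p 0.101 to 0.116), with quantile normalization (0.0615) and on the mean of its kept probes (0.0819). Tpm2 and Tpm4 differed at 10h by -0.24 (95% interval -0.86 to 0.39) and -0.37 (-0.64 to -0.11, adjusted p = 0.051) and were not called.

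**Figure D3:**
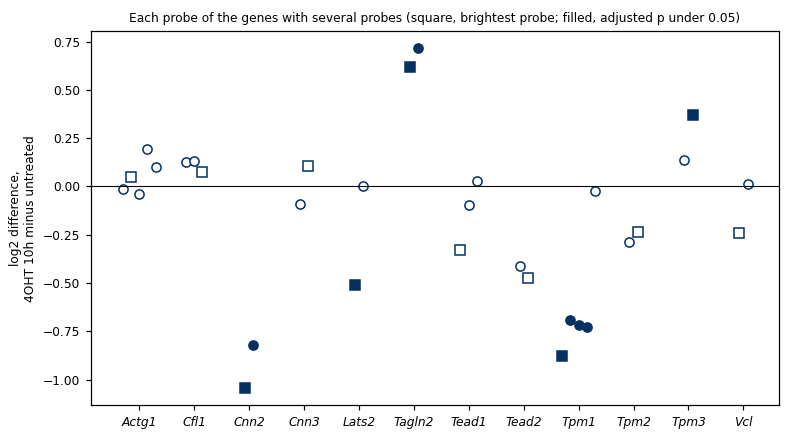
Log2 difference of 4OHT 10h from untreated cells for each kept probe of the 12 genes with several probes, with the brightest probe, which represents the gene, as a square and filled points for an adjusted p under 0.05 over probes. Both probes of Cnn2 and of Tagln2 were called in 1 direction, 4 of 5 probes of Tpm1 lay near -0.7 to -0.9 and the other at -0.02, and the 5 probes of Actg1 stayed between -0.04 and 0.19.

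Transgelins and calponins, small proteins that bind and stabilise filaments in contractile cells, also went different ways, with 1 gene of 5 higher and 2 lower at 10h. Tagln, transgelin itself and a classic SRF target, had 0.42 and -0.08 in inhibited cells, 1.28 and 1.54 in untreated cells, 0.79 and 1.29 at 8h and 0.06 and 0.32 at 10h. The 8h arrays overlapped the untreated ones and the 10h arrays lay below both groups. Tagln fell by 1.22 at 10h (SE 0.25, 2.33-fold, adjusted p = 0.017), a call lost without any 1 of the 4 untreated and 10h arrays (adjusted p 0.0546 to 0.0831). Its relative Tagln2, the form found outside muscle, had 6.37 and 6.38 in inhibited cells, 5.88 and 5.89 in untreated cells, 6.35 and 6.40 at 8h and 6.5 and 6.5 at 10h. Tagln2 rose by 0.49 ± 0.06 at 8h (adjusted p = 0.0051) and 0.62 ± 0.06 at 10h (adjusted p = 0.0021), on both of its probes. Cnn2, a calponin of non-muscle cells, had 0.55 and 0.54 in inhibited cells, 1.72 and 1.54 in untreated cells, 0.87 and 0.93 at 8h and 0.55 and 0.62 at 10h. Its groups did not overlap with untreated cells, and it fell by 0.73 at 8h (SE 0.09, adjusted p = 0.0037) and by 1.04 at 10h (SE 0.09, adjusted p = 0.00098), again on both probes. Cnn1, the calponin of smooth muscle, differed by -1.14 ± 0.34 at 10h without being called (adjusted p = 0.057). Cnn3 differed by 0.10 (95% interval -0.10 to 0.30).

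Of the myosin II genes and anillin, 2 of 4 fell at 10h and none rose. Myl9, a regulatory light chain whose phosphorylation switches on contraction, had -2.16 and -1.69 in inhibited cells, -0.34 and 0.25 in untreated cells, -1.77 and -1.15 at 8h and -2.62 and -1.79 at 10h. Replicate 2 lay above replicate 1 in each group, and all arrays after 4OHT lay below both untreated arrays. Myl9 fell by 2.16 at 10h (SE 0.39, 4.46-fold, adjusted p = 0.012), and its 8h difference of -1.41 ± 0.39 was not called (adjusted p = 0.052). Without replicate 2 of untreated cells the 10h adjusted p was 0.0607. Myh10, the heavy chain of non-muscle myosin IIB, had 0.36 and 0.29 in inhibited cells, 0.46 and 0.54 in untreated cells, 0.02 and 0.05 at 8h and -0.16 and 0.06 at 10h. It fell by 0.46 at 8h (SE 0.09, adjusted p = 0.022) and by 0.55 at 10h (SE 0.09, adjusted p = 0.011). The 8h call was lost without any 1 of the 4 arrays compared (adjusted p 0.0666 to 0.101), and the 10h call without replicate 2 of untreated cells (0.0538). Myh9, the IIA heavy chain, and Anln, an actin-binding scaffold of the dividing cell's furrow, differed at 10h by 0.10 (95% interval -0.26 to 0.46) and 0.17 (-0.01 to 0.34).

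Among proteins of filament turnover and of the cortex, moesin (Msn), which links filaments to the plasma membrane, was the 1 gene of 4 that rose. Msn had 4.68 and 4.22 in inhibited cells, 3.83 and 3.70 in untreated cells, 4.77 and 4.49 at 8h and 4.81 and 4.61 at 10h. All 6 arrays after 4OHT lay above the untreated ones, by 0.86 ± 0.19 at 8h (adjusted p = 0.026) and 0.94 ± 0.19 at 10h (adjusted p = 0.016). The calls were lost without any 1 of the 4 arrays compared (adjusted p 0.0614 to 0.113 at 8h and 0.0527 to 0.0761 at 10h). Its relative ezrin (Ezr), the severing protein cofilin (Cfl1) and the monomer-binding protein profilin (Pfn1) were not called, with 10h differences of 0.25 (95% interval 0.03 to 0.47), 0.08 (-0.09 to 0.24) and 0.29 (-0.10 to 0.68).

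Both genes of the intermediate filaments and the lamina rose. Lmna encodes lamins A and C, nuclear lamina proteins that are low in embryonic stem cells and accumulate on differentiation. It stood at 4.94 and 4.69 in inhibited cells, 3.52 and 2.85 in untreated cells, 4.74 and 4.47 at 8h and 5.05 and 4.94 at 10h. The untreated arrays were the lowest and also the farthest apart, and Lmna rose by 1.42 ± 0.24 at 8h (adjusted p = 0.012) and 1.81 ± 0.24 at 10h (3.50-fold, adjusted p = 0.0043). Without replicate 1 of 4OHT 8h the 8h adjusted p was 0.0601. Vim, vimentin, the intermediate filament of mesenchymal cells, had 5.88 and 5.80 in inhibited cells, 5.35 and 5.36 in untreated cells, 6.07 and 6.06 at 8h and 5.99 and 6.05 at 10h. Its groups did not overlap with untreated cells, and it rose by 0.72 ± 0.07 at 8h and 0.67 ± 0.07 at 10h (adjusted p = 0.0021 for each).

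Of the YAP target genes only Ccn1 was called. Ccn1 and Ccn2 (also Cyr61 and Ctgf) encode secreted matrix proteins. Ccn1 had 0.89 and 0.86 in inhibited cells, 0.87 and 0.96 in untreated cells, 1.60 and 1.78 at 8h and 1.52 and 1.90 at 10h. Each 4OHT array without the inhibitor lay above the untreated arrays, by 0.78 ± 0.14 at 8h (adjusted p = 0.015) and 0.79 ± 0.14 at 10h (adjusted p = 0.011). The 8h call was lost without either untreated array or replicate 2 of 4OHT 8h (adjusted p 0.0586 to 0.0827), and the 10h call without replicate 1 of untreated cells (0.0606). Ccn2 varied more between replicates, at 3.41 and 3.74 in inhibited cells, 2.65 and 3.37 in untreated cells, 2.25 and 3.17 at 8h and 2.15 and 3.01 at 10h. The 4OHT and untreated arrays of Ccn2 overlapped, with a 10h difference of -0.43 (95% interval -1.53 to 0.67). Ankrd1, a nuclear ankyrin-repeat protein, was not tested: its probe was well above background on 1 array, replicate 2 of inhibited cells, and on 0 of the other 7.

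The angiomotins are membrane scaffolds that bind both filaments and YAP, and the 3 family members did not move together. Amotl1 had -0.44 and -0.31 in inhibited cells, -2.09 and -1.92 in untreated cells, 0.02 and -0.21 at 8h and -0.06 and 0.26 at 10h. All arrays after 4OHT lay more than 1 log2 unit above the untreated ones, and Amotl1 rose by 1.91 ± 0.15 at 8h (3.76-fold, adjusted p = 0.001) and 2.10 ± 0.15 at 10h (4.29-fold, adjusted p = 0.00063). Amotl2 had 2.55 and 2.43 in inhibited cells, 2.65 and 2.51 in untreated cells, 1.65 and 1.72 at 8h and 1.58 and 1.63 at 10h. Its 8h and 10h arrays lay below all others, and Amotl2 fell by 0.89 at 8h (SE 0.09, adjusted p = 0.0022) and by 0.97 at 10h (SE 0.09, 1.97-fold, adjusted p = 0.0014). Amot had 0.59 and 0.40 in inhibited cells, 0.16 and -0.17 in untreated cells, 0.40 and 0.07 at 8h and 0.61 and 0.61 at 10h. It rose by 0.62 ± 0.16 at 10h (adjusted p = 0.04), a call lost without replicate 2 of untreated cells or any 1 of the 10h and inhibited arrays (adjusted p 0.0585 to 0.147).

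The kinase gene Lats2 had -1.80 and -2.05 in inhibited cells, -1.25 and -1.48 in untreated cells, -1.67 and -1.67 at 8h and -1.79 and -1.95 at 10h. It fell by 0.51 at 10h (SE 0.13, adjusted p = 0.034), a call lost without replicate 1 of untreated cells or any 1 of the 8h and 10h arrays (adjusted p 0.0627 to 0.153). It was also lost with median centring (0.177), with quantile normalization (0.0912) and on the mean of its kept probes (0.213), since its other probe differed by 0.00. That probe was dim, with mean levels of -3.51 at 10h and -3.52 in untreated cells. At 8h it differed by 0.44 and the brighter probe by -0.31, and neither was called. Lats1 and Ajuba, a LIM protein that restrains the LATS kinases, were not called at 10h, with differences of 0.20 (95% interval -0.04 to 0.43) and 0.20 (-0.22 to 0.63).

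Of the 5 genes for YAP, TAZ and their TEAD partners, 1 was called. Tead3 had -2.99 and -2.80 in inhibited cells, -3.90 and -3.92 in untreated cells, -3.14 and -3.08 at 8h and -3.20 and -3.34 at 10h. It was near the detection limit, well above background on 1 of the 2 untreated arrays and on both arrays of each other group. Tead3 was called higher, by 0.80 ± 0.09 at 8h (adjusted p = 0.0037) and 0.64 ± 0.09 at 10h (adjusted p = 0.0061), and it passed the filter through the groups in which it was higher. The size of its difference was uncertain, from 0.32 with normexp background correction to 0.95 with quantile normalization at 8h, and from 0.30 with normexp to 0.83 with median centring at 10h. Yap1, Wwtr1 (the gene of TAZ), Tead1 and Tead2 were not called, with 10h differences of 0.07 (95% interval -0.23 to 0.36), -0.10 (-0.42 to 0.22), -0.33 (-0.78 to 0.13) and -0.47 (-0.89 to -0.05). Srf, which is not among the 42 genes, differed by 0.27 ± 0.13 at 10h (adjusted p = 0.186).

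Some of these calls also rested on which features or arrays entered the fit. Without the filter on dim probes the 8h calls of Tpm1, Myh10, Msn and Ccn1 were lost (adjusted p 0.055 to 0.0893), as were the 10h calls of Actb, Tpm3, Tagln, Msn, Amot and Lats2 (0.0542 to 0.132). With only the 2 compared groups fitted, the 8h calls of Myh10 and Lmna (0.0513 and 0.0564) and the 10h calls of Actb, Tpm3, Myh10, Ccn1, Amot and Lats2 (0.0515 to 0.112) were lost. The size of some called differences moved by over 1.5 times: with median centring the 10h differences were 0.49 for Actb, 0.56 for Tpm3, -0.36 for Myh10 and -0.32 for Lats2, and on the mean of kept probes that of Tpm1 at 8h was -0.43.

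Cells given the MEK inhibitor for 2 h after 8 h of 4OHT differed from 4OHT 10h in few of these genes. Fhl2 and Ccn1 were lower and Amotl2 was higher. These are 3 of 41 tested genes, or 7.32%, where 6.12% of all 22687 features were called (3.24% higher and 2.87% lower), so the share was near the background. The differences of Ccn1 and Amotl2 from untreated cells were -0.04 and -0.09, while Fhl2 was 16.7-fold above its untreated level. The median difference of the 41 genes was -0.05, against -0.04 over all features. Against 4OHT 8h, the time at which the inhibitor was added, Ccn1 and Amotl2 were called, 2 of 41 or 4.88%, where 6.52% of all features were called (3.4% higher and 3.11% lower). Both comparisons share the inhibited arrays, and the 4OHT arrays are also those compared above with untreated cells.

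Ccn1 had 0.89 and 0.86 in inhibited cells, against 1.52 and 1.90 at 4OHT 10h and 1.60 and 1.78 at 4OHT 8h. Both inhibited arrays lay below all 4 arrays of cells with 4OHT alone. Ccn1 fell by 0.83 against 10h (SE 0.14, 1.77-fold, adjusted p = 0.03) and by 0.81 against 8h (SE 0.14, adjusted p = 0.03). Its difference from untreated cells was -0.04 (95% interval -0.38 to 0.31). The call against 10h was lost on leaving out any 1 array but replicate 1 of 4OHT 10h (adjusted p 0.0578 to 0.13), and the call against 8h on leaving out any 1 inhibited, untreated or 8h array (0.0632 to 0.147).

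Amotl2 had 2.55 and 2.43 in inhibited cells, against 1.58 and 1.63 at 4OHT 10h and 1.65 and 1.72 at 4OHT 8h. Both inhibited arrays lay above all 4 others, and the difference was 0.89 ± 0.09 against 10h (1.85-fold, adjusted p = 0.0064) and 0.81 ± 0.09 against 8h (adjusted p = 0.0089). The difference from untreated cells was -0.09 (95% interval -0.31 to 0.13). The call against 10h held with any 1 array left out, and was lost when only the 2 groups compared were fitted (adjusted p = 0.0553). The call against 8h was lost without either 8h array or replicate 1 of inhibited cells (adjusted p 0.0531 to 0.0568).

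Fhl2 had 2.34 and 2.47 in inhibited cells, against 3.0 and 3.29 at 4OHT 10h, with no overlap. It fell by 0.74 against 10h (SE 0.12, 1.67-fold, adjusted p = 0.027), and differed from 4OHT 8h by -0.14 (95% interval -0.44 to 0.16, adjusted p = 0.557). The call was lost on leaving out any 1 array but replicate 1 of 4OHT 10h (adjusted p 0.0556 to 0.126), and with quantile normalization (0.0527). Without the filter on dim probes, or with only the 2 compared groups fitted, the calls of Fhl2 and Ccn1 against 10h were lost (0.114 to 0.127). Several other genes came near the threshold without passing it. Against 10h, Lats1 differed by -0.44 ± 0.09 (adjusted p = 0.056), Zyx by -0.47 ± 0.11 (0.075), Tead3 by 0.37 ± 0.09 (0.086) and Myh10 by 0.37 ± 0.09 (0.089). Ccn2 was higher on both inhibited arrays than on the 10h arrays, by 0.99 ± 0.44, and was not called (adjusted p = 0.282). A second Tpm3 probe, on another transcript than the probe that represents the gene, differed by -0.89 between inhibited cells and 4OHT 10h (adjusted p = 0.00906 over probes), while the brighter probe differed by -0.28 (0.159 over probes). The second probe was dim, with mean levels of -3.34 in inhibited cells and -2.45 at 4OHT 10h, so the size of its difference is uncertain.

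**Figure D4:**
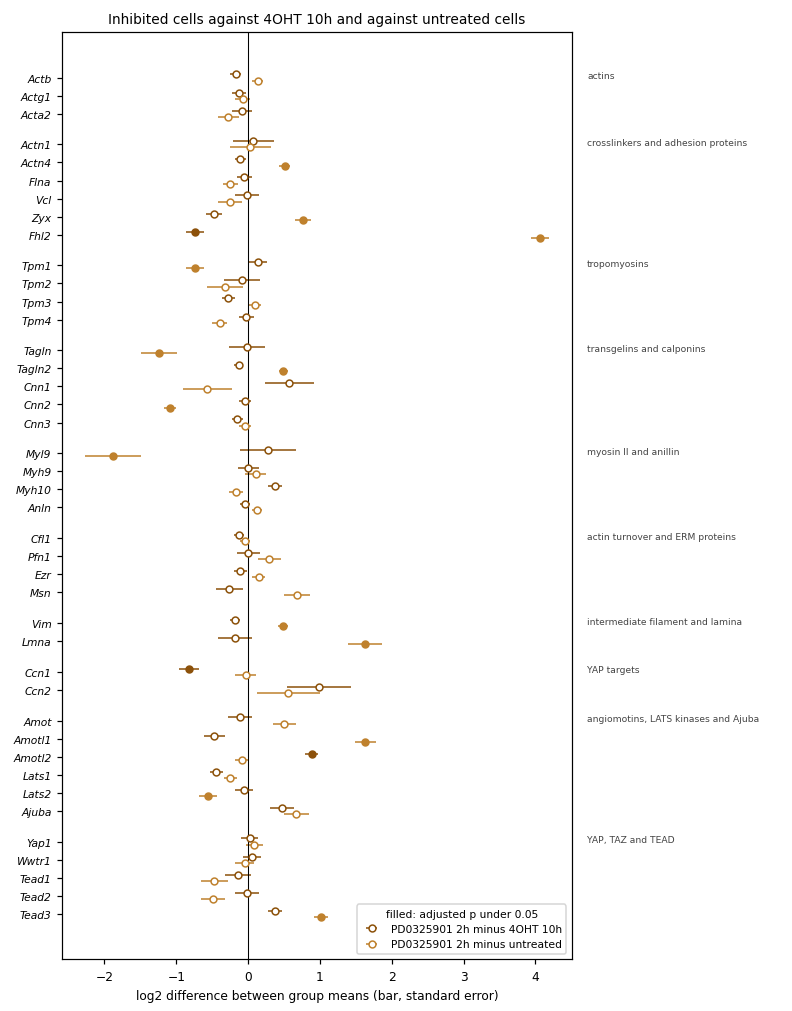
Log2 difference of inhibited cells from 4OHT 10h (dark brown) and from untreated cells (light brown) for the 41 tested genes, with the SE of the fit as a bar and a filled point where the adjusted p was under 0.05. Amotl2 and Ccn1 differ from 4OHT 10h by 0.89 and -0.83 and lie at -0.09 and -0.04 against untreated cells, while Fhl2 lies at -0.74 and 4.06.

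Inhibited cells, after 8 h of 4OHT and 2 h of inhibitor, still differed from untreated cells in 13 of 41 genes, 8 higher and 5 lower, a share of 31.7% where 15.9% of all features were called (7.06% higher and 8.8% lower). The genes that were higher were Fhl2 (4.06 ± 0.12), Amotl1 (1.63 ± 0.15), Lmna (1.63 ± 0.24), Tead3 (1.02 ± 0.09), Zyx (0.76 ± 0.11), Actn4 (0.51 ± 0.07), Tagln2 (0.49 ± 0.06) and Vim (0.49 ± 0.07), with adjusted p between 0.00026 and 0.012. The genes that were lower were Myl9 (-1.88 ± 0.39), Tagln (-1.24 ± 0.25), Cnn2 (-1.09 ± 0.09), Tpm1 (-0.74 ± 0.13) and Lats2 (-0.56 ± 0.13), with adjusted p between 0.0023 and 0.039. Each of the 13 genes moved the same way in replicate 1 and in replicate 2, which is again not separate from the calls. Ajuba, with 4.54 and 4.79 in inhibited cells and 3.94 and 4.05 in untreated cells, differed by 0.67 ± 0.17 and was not called (adjusted p = 0.052). The calls of Actn4, Lmna and Myl9 were lost without either inhibited array, those of Tpm1, Tagln, Zyx and Myl9 without either untreated array, that of Tpm1 without replicate 1 of inhibited cells and those of Zyx and Tagln without replicate 2 (adjusted p 0.0509 to 0.124 in all). The call of Lats2 was lost on leaving out any 1 of the 8 arrays (0.0591 to 0.143). With normexp the difference of Amotl1 was 0.97 and that of Tead3 0.39. Tead3 was well above background on 1 of the 2 untreated arrays and passed the filter through the groups in which it was higher. Of the 13 calls 5 were left without the filter on dim probes and 6 with only these 2 groups fitted.

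Lists of other genes of the same pathways, none of them among the 42, were read in the same fit. Of further genes of the SRF and MRTF programme 9 of 23 tested rose at 10h and 3 fell. Smtn (smoothelin, a protein of contractile smooth muscle) rose by 2.08 ± 0.10, Itgb1 (the beta-1 integrin) by 1.58 ± 0.11 and Pdlim7 (a PDZ-LIM adaptor) by 1.57 ± 0.09, and Cald1 (caldesmon) fell by 0.69 (SE 0.07). Of genes for nucleation, turnover and monomer binding 12 of 38 rose and 2 fell, among them Tmsb4x (thymosin beta-4, which sequesters monomers; 1.68 ± 0.10), the capping protein Capg (1.55 ± 0.11), the WAVE complex gene Wasf2 (0.68 ± 0.09) and the Arp2/3 subunit Arpc2 (0.43 ± 0.07). Of the Hippo core and TEAD cofactors 5 of 24 rose and 4 fell, with Tead4 at 2.17 ± 0.26, the kinase Map4k4 at 0.77 ± 0.13 and Wwc2, a regulator of LATS, at -0.59 ± 0.11. Of further YAP and TEAD targets 7 of 22 rose and 2 fell, and Fjx1 (2.72 ± 0.09), Gadd45a (1.84 ± 0.15) and F3 (0.96 ± 0.08) were among those that rose. The shares called were 52.2%, 36.8%, 37.5% and 40.9% in the order given, where 27.9% of all features were called.

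**Figure D5:**
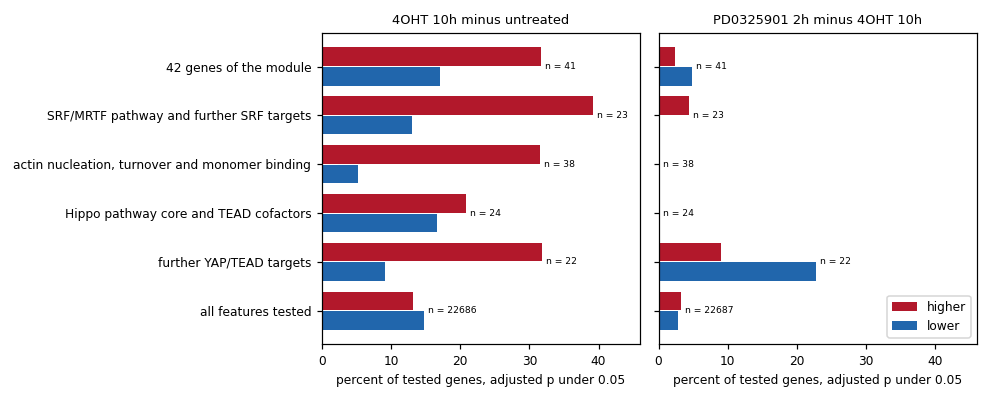
Percent of tested genes called higher (red) and lower (blue) in the module, in the 4 other pathway lists and over all features, for 4OHT 10h minus untreated (left) and inhibited cells minus 4OHT 10h (right), with the number tested beside each pair of bars. In the left panel 48.8% of the 41 genes were called in either direction, and in the right panel no gene was called in 2 of the lists.

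After the inhibitor these lists differed in how many genes were called against 4OHT 10h. Further YAP and TEAD targets had 2 genes higher and 5 lower of 22, a share of 31.8% where 6.12% of all features were called. Fjx1 fell by 2.98 (SE 0.09), Gadd45a by 1.05 (SE 0.15) and Dlc1, a GTPase-activating protein, by 0.83 (SE 0.07), and Ccn4, another member of the CCN family, rose by 1.62 ± 0.14. The SRF list had 1 of 23, Lima1, an actin-bundling protein (1.25 ± 0.21). With limma 0 of 38 nucleation and turnover genes and 0 of 24 Hippo genes were called. An unadjusted p under 0.05 was found for 6 and 3 of them, and for 4805 of all 22687 features.

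Markers of other cell types were read in the same samples. Fibroblast markers had a summed level, relative to the array's 75th percentile, of 14.3 to 25.8 in inhibited cells, 2.89 to 3.77 in untreated cells, 18.7 to 38.2 at 4OHT 8h and 20.2 to 42 at 4OHT 10h. Of the 12 markers 5 were well above background on both arrays of inhibited cells, 6 in untreated cells, 5 at 8h and 4 at 10h, and Lum and Twist2 were on no array of any group. A summed level follows its brightest markers. Over the 6 tested fibroblast markers the median change from untreated cells was -0.31 at 8h and -0.50 at 10h. At 10h Thy1 and Twist1 were called higher and Col1a1 and Pdgfrb lower, and these genes are named after their values were seen. Muscle markers summed to 15.8 to 17.4 in inhibited cells, 6.75 to 7.17 in untreated cells, 18.5 to 20.6 at 8h and 19.5 to 22.6 at 10h, with 1 of 5 tested markers higher (Smtn) and 1 lower (Myl7). The median change of these 5 from untreated cells was -0.01 at 8h and 0.18 at 10h. Myh11 and Myocd, defining genes of smooth muscle, were above background on 1 inhibited array each and on no untreated, 8h or 10h array. Trophoblast markers summed to 43.4 to 45.5 in inhibited cells, 15.9 to 18.4 in untreated cells, 36.2 to 42.3 at 8h and 50.4 to 64.0 at 10h, with 5 of 8 tested markers higher at 10h and 1 lower, and Tpbpa was above background on no array. Primitive endoderm markers summed to between 253 and 401 over all groups and 0 of 12 were called at 10h. Over all features 27.9% were called at 10h, 13.1% higher and 14.8% lower. The part of these cell types in the changes of the 42 genes was not tested.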

How the data were processed

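Total RNA (100 ng per sample, per the labels' protocols) was measured on 8 arrays of Agilent design 028005 on 1 slide. The processed signal, a background-corrected intensity with no scaling across arrays, came from Agilent Feature Extraction 11.0.1.1 per the file headers. The deposited files also hold the median signal and local background as intensity and marks (score 0 or 1) for spots well above background, saturated or outlying. The labels name Cy5 although the files hold 1 channel, named green. The deposited value table holds the same intensity, linear and not centred, within 0.497%. Its medians over non-control spots were 22.4 and 23.9 for inhibited cells (replicates 1 and 2), 29.9 and 27.9 for untreated cells, 23.5 and 26.5 at 4OHT 8h and 21.6 and 23.7 at 4OHT 10h. The design uses build mm9.

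Control spots (3671 of 62976) and outlier spots (169 to 249 per array) were left out, and 0 spots were saturated. Symbols came from RefSeq (GRCm38.p6) through unversioned accessions, with 1 symbol for 27656 of 55681 probes, 0 with several and 28025 with none. A probe was kept where some group had it well above background on each of its arrays (30329 probes), and the brightest kept probe represents a gene. Log2 signal minus the array's 75th percentile was fitted in R 4.3.3 with limma 3.58.1, a mean per group over all 8 arrays, with two-sided moderated tests and Benjamini-Hochberg adjustment. The fit was tested on simulated data. Replicates 1 and 2 lie in the 2 rows of the slide, and the slide column and group cannot be told apart. Alternatives were a replicate block, median centring, quantile normalization, normexp (offset 50, on the median signal), other filters, other samples in the fit, an intensity trend, the mean of probes, the value table and leaving out each array.

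All 42 members are named. Of each other pathway list at most 4 called genes with the smallest adjusted p were named in 4OHT 10h against untreated and in inhibited cells against 4OHT 10h, with Srf and an ERK response gene. Another list and some genes that this rule names are not reported here. Members and lists were chosen with earlier results of these data known.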

Additional observations from a re-analysis of the deposited data

How the results depend on the processing

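The direction of each called gene held under each alternative run. The totals after 4OHT kept within 1.5 times, at 14 of 41 at 8h (10 to 15 with 1 array left out) and 20 at 10h (14 to 19), but the lower calls did not: 10 higher and 4 lower at 8h became 11 and 9 with a replicate block and 8 and 2 without the filter on dim probes or without some single arrays, and 13 and 7 at 10h became 13 and 11 with the block. The smaller counts after the inhibitor did not. Against 4OHT 10h, 3 became 7 with a replicate block, 1 without the filter on dim probes, 0 with only the groups compared and 1 to 3 with 1 array left out. Against 4OHT 8h, 2 became 7 with a replicate block, 0 without the filter, 0 with only the groups compared, 5 with an intensity trend and 0 to 2 with 1 array left out. Against untreated cells, 13 became 21 with a replicate block, 5 without the filter, 6 with only the groups compared and 7 to 12 with 1 array left out. With quantile normalization the split against 4OHT 10h was 1 higher and 1 lower in place of 1 and 2, and with normexp that against 4OHT 8h was 1 and 2 in place of 1 and 1.

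The replicate numbers are not stated to share a culture or batch. Same-numbered arrays deviated together from their group means (correlation 0.287 to 0.356 over the 6 pairs of groups), with only 2 numbers. At 8h the block called Myl9 (adjusted p = 0.00128) and Cnn1 (0.0105) lower, with Tpm2, Lats2 and Wwtr1, and Tpm3 higher. At 10h it called Cnn1 (0.00475), Tpm2, Tpm4 and Tead2 lower. It added Zyx, Ccn2, Lats1 and Ajuba for the inhibitor against 4OHT 10h. Calls lost under no alternative were 9 of 14 at 8h, 11 of 20 at 10h, 0 of 3 and 0 of 2 for the inhibitor against 4OHT 10h and 8h, and 4 of 13 for inhibited against untreated cells. Median centring moved the median of all features by 0.135 at 8h, 0.188 at 10h and 0.112 for inhibited against untreated cells. Tead3 has no value with only probes above background on all 8 arrays. Its calls at 8h, at 10h and for inhibited against untreated cells are counted as lost nowhere, over 17 alternatives in place of 18. With 2 arrays per group, an array left out leaves 1 that is assumed to vary like the other groups. Signal over background limits Ankrd1 and Tead3.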
